A study of Mus musculus with 6 samples.

Results

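A group of 8 lysosomal genes, each represented by 1 Ensembl transcript of the array table, was followed in resident peritoneal macrophages that were cultured with oxidized LDL (oxLDL) or with vehicle. The genes were Atp6v0d2, the cathepsin genes Ctsk, Ctsl, Ctsb and Ctss, and the cholesterol-handling genes Lipa, Npc1 and Npc2. They were found by their transcript identifiers, and 8 of 8 were present among the 81690 transcripts of the table. The macrophages came from female C57BL/6J mice at 8 to 12 weeks of age and carried no engineered allele that the labels name. In each of 3 separate experiments the peritoneal cells of several mice were pooled, and the cells that adhered within 2 h were kept. They were then cultured for 24 h with 25 µg/mL of human LDL that had been oxidized with copper sulfate, or with vehicle. This gave 3 oxLDL arrays and 3 vehicle arrays (titled "unstim" in the labels), numbered 1 to 3 in each group, on the Affymetrix Mouse Exon 1.0 ST platform. Macrophage and other cell-type marker genes were not analysed here, so the labelled cell type was not checked against them.

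The lysosome is the acidic compartment in which a macrophage digests what it has taken up. The vacuolar proton pump (V-ATPase) acidifies it, and proteases, lipases and other hydrolases work at that pH. Cholesteryl esters that arrive with a lipoprotein are cleaved by lysosomal acid lipase, and the freed cholesterol is carried out of the lysosome by the Niemann-Pick C proteins. A macrophage that has ingested oxLDL loads with lipid and turns into a foam cell, so these steps lie on the route by which the LDL lipid enters the cell.

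The 8 genes were selected on their difference between the oxLDL and vehicle arrays, with earlier results of these arrays known. Their differences are therefore given as a description with no p-value for any single gene, counts of calls from the fit over all transcripts are given in the same way, and they are not evidence about lysosomal genes in general. All values are on the log2 scale as deposited, so that a difference of 1 is a 2-fold change. Because the probes of different genes differ in brightness, only differences between arrays, and not levels, were compared from gene to gene.

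Of the 8 transcripts, 1 was higher with oxLDL by many times the spread between arrays (Atp6v0d2), 5 had smaller differences with all oxLDL arrays above all vehicle arrays (Ctsk, Ctsl, Lipa, Npc1 and Ctsb), and 2 had overlapping groups (Ctss and Npc2). All oxLDL arrays were above all vehicle arrays for 12.7% of tested transcripts and below them for 32.5%. Of the 5, Ctsb did not reach a limma q-value below 0.05 in the fit over all transcripts. The log2 fold-change was 2.58 for Atp6v0d2 and lay between -0.15 and 0.58 for the other 7. The median over the 8 was 0.26, with or without Atp6v0d2, and the median over all 40845 tested transcripts was -0.10. In bulk RNA such as this, more transcript per cell cannot be told apart from more cells of a kind that carries it.

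**Figure D1:**
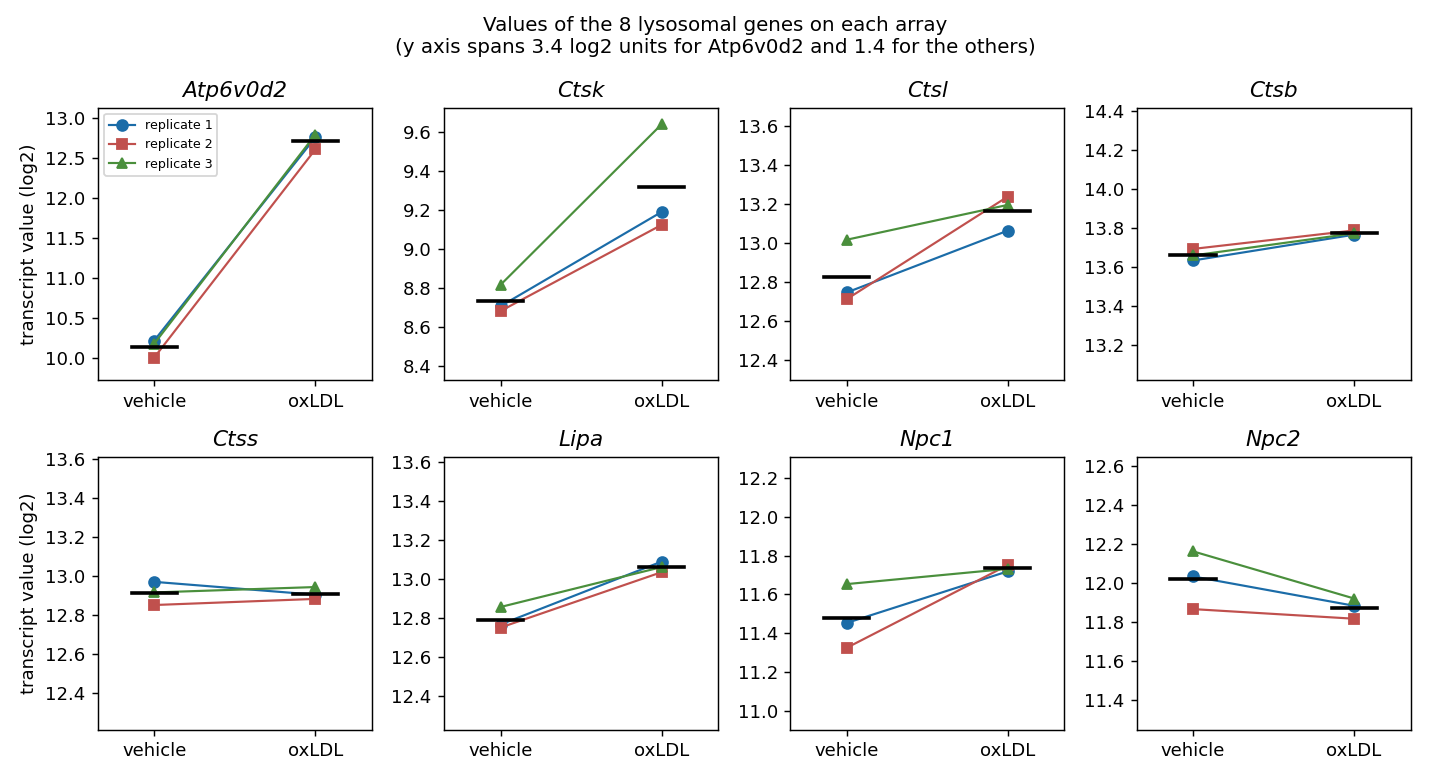
Value of each of the 8 transcripts (log2, vertical axis) on the vehicle and oxLDL arrays. Each line joins the 2 arrays of 1 replicate experiment and black bars are group means (n = 3); the Atp6v0d2 axis spans a wider range than the others, and its 3 lines run from near 10.14 to near 12.72 while the lines of Ctss stay near 12.91.

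Atp6v0d2 (ENSMUST00000029900_at) encodes the d2 isoform of a subunit of the membrane-bound part of the V-ATPase, an isoform best known from osteoclasts, the bone-resorbing relatives of macrophages. Its value was 10.22, 10.01 and 10.18 with vehicle in experiments 1, 2 and 3, and 12.75, 12.60 and 12.79 with oxLDL in the same order. Every oxLDL array was far above every vehicle array. The group means were 10.14 ± 0.11 (SD, n = 3) and 12.72 ± 0.10 (SD, n = 3), a 5.97-fold difference. Within the experiments the fold-change was 5.78, 6.04 and 6.09, so the 3 experiments gave closely similar sizes. The SD of the 3 within-experiment differences was 0.040, and over the 8 genes this SD ran from 0.019 for Ctsb to 0.21 for Ctsk. Among the 40845 tested transcripts only 1 had a larger log2 fold-change.

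The transcripts whose 3 within-experiment differences lay closest to those of Atp6v0d2 were sought among the other 40844 tested transcripts. The distance includes the size of the differences, so it mainly picks out transcripts with a similar mean rise. The nearest was ENSMUST00000128605_at, at a Euclidean distance of 0.24 (log2), with differences of 2.38, 2.42 and 2.53 in experiments 1, 2 and 3. The next was ENSMUST00000166200_at, at a distance of 0.36, with differences of 2.51, 2.33 and 2.37. Neither was paired with a gene here, and either could be another transcript of a gene already counted. The nearest of the other 7 lysosomal genes, Ctsk, lay at a distance of 3.46.

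The 4 cathepsins are cysteine proteases of the papain family, and their differences ran from 0.58 for Ctsk to near 0 for Ctss. Cathepsin K (Ctsk, ENSMUST00000015664_at), a strong collagenase and elastase of osteoclasts and activated macrophages, had values of 8.70, 8.68 and 8.81 with vehicle in experiments 1, 2 and 3, and 9.19, 9.12 and 9.64 with oxLDL in the same order. All oxLDL arrays were above all vehicle arrays, with oxLDL array 3 standing above the other two. The means of Ctsk were 8.73 ± 0.07 (SD, n = 3) and 9.32 ± 0.28 (SD, n = 3), a log2 fold-change of 0.58. The differences within the experiments were 0.48, 0.44 and 0.82 (log2), and without oxLDL array 3 the mean difference was 0.42. The vehicle mean of Ctsk was just under 8.74, the mean above which a transcript was tested, and whether this level exceeded the background of the array was not assessed.

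Cathepsin L (Ctsl, ENSMUST00000021933_at), a broad endopeptidase of the lysosome, had values of 12.75, 12.71 and 13.02 with vehicle in experiments 1, 2 and 3, and 13.06, 13.24 and 13.20 with oxLDL in the same order. The groups did not overlap, but vehicle array 3 came close to oxLDL array 1. The means of Ctsl were 12.83 ± 0.17 (SD, n = 3) and 13.17 ± 0.09 (SD, n = 3), a 1.27-fold difference. The within-experiment differences of Ctsl were 0.32, 0.53 and 0.18 (log2), all in the same direction but unequal in size.

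Cathepsin B (Ctsb, ENSMUST00000006235_at), which acts both as an endopeptidase and as a dipeptide-removing enzyme, had values of 13.63, 13.69 and 13.66 with vehicle in experiments 1, 2 and 3, and 13.77, 13.79 and 13.77 with oxLDL in the same order. The groups were tight and did not overlap. The difference was small, with means of 13.66 ± 0.03 (SD, n = 3) and 13.78 ± 0.01 (SD, n = 3) and a fold-change of 1.08. The 3 experiments gave differences of 0.13, 0.095 and 0.11 (log2). The highest value of the whole table was 14.42, and whether the Ctsb probes were near saturation was not tested. Nor was it tested for Ctsl, Ctss and Lipa, whose group means lay between 12.79 and 13.17.

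Cathepsin S (Ctss, ENSMUST00000015667_at), the protease that trims the invariant chain of MHC class II and that keeps its activity at neutral pH, had values of 12.97, 12.85 and 12.91 with vehicle in experiments 1, 2 and 3, and 12.90, 12.88 and 12.94 with oxLDL in the same order. The groups overlapped. The means of Ctss were 12.91 ± 0.06 (SD, n = 3) and 12.91 ± 0.03 (SD, n = 3), and the within-experiment differences were -0.066, 0.031 and 0.028 (log2), with no common sign. One other transcript of the table carried values identical to those of Ctss on all 6 arrays, so the row may not be independent of it.

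The median log2 fold-change of the 4 cathepsins was 0.23. Ctsk exceeded Ctss in 3 of 3 experiments, by 0.55, 0.41 and 0.80 (log2). Ctsk and Ctss lie next to each other in the mouse genome, with 0 other protein-coding genes between them in the RefSeq gene table. Ctsk and Ctsl could not be ranked, since the difference was larger for Ctsk in experiments 1 and 3 and larger for Ctsl in experiment 2.

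The windows from 250 bases before to 50 bases after the RefSeq start sites of Ctsk and Ctss are shown because these neighbouring genes had unlike differences, and that of Ctsl because it held the E-box sequence of the family bound by TFEB and its relatives, the transcription factors of lysosomal genes. Capitals mark every match to CACGTG (the E-box), TCACGTGA (a longer form that contains it, found at lysosomal genes), CATGTG (a related E-box), GAGGAA (part of sites bound by the macrophage factor PU.1) or TGANTCA (the AP-1 site) on either strand, so that TTCCTC is GAGGAA on the reverse strand. The sequences are from RefSeq, build GRCm38.p6, and are written 5′ to 3′ on the strand of the gene. The window of Ctsk is chr3:95498960-95499259 on the plus strand, that of Ctss is chr3:95526536-95526835 on the plus strand, and that of Ctsl is chr13:64370471-64370770 on the minus strand.
Ctsk: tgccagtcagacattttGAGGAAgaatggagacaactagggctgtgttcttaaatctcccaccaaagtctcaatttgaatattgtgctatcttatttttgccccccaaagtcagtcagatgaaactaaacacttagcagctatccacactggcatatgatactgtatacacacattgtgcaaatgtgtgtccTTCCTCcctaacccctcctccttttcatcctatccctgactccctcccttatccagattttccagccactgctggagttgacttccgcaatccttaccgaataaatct
Ctss: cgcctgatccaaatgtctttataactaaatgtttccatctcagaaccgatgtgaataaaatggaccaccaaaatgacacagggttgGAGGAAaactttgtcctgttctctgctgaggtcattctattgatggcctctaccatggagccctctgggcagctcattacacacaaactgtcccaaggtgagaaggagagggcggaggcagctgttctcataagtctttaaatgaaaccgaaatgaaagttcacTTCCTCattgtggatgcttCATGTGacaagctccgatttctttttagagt
Ctsl: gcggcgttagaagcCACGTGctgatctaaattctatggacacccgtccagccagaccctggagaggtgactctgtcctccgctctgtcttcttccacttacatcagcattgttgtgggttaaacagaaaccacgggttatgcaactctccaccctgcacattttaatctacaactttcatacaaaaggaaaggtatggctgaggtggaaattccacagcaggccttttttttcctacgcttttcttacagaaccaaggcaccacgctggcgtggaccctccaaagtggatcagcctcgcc

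The Ctsk and Ctss windows each held 2 matches to GAGGAA. Counted from the start site, with 1 for the first transcribed base, these began at -233 and -58 in Ctsk and at -164 and 1 in Ctss. Ctss held a CATGTG match as well, beginning at base 20. Windows were found for 5 of the 8 genes, and the Lipa window also held 2 matches to GAGGAA, while that of Npc2 held no match to any of the 5 motifs. GAGGAA was present in 28.3% of the 32851 windows of the table and CATGTG in 14.2%. The single CACGTG match, in Ctsl, began at -236, where 7.15% of all windows held CACGTG. TCACGTGA and TGANTCA were in 0.974% and 7.81% of all windows and in 0 of these 5. These matches are descriptions of letters in a short window, and binding was not measured. No window was used for Atp6v0d2, Ctsb or Npc1.

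Of the 3 cholesterol-handling genes, Lipa and Npc1 had similar differences and Npc2 lay below both in 3 of 3 experiments. Lipa (ENSMUST00000049572_at) encodes lysosomal acid lipase, and its value was 12.77, 12.75 and 12.86 with vehicle in experiments 1, 2 and 3, and 13.09, 13.03 and 13.06 with oxLDL in the same order. All oxLDL arrays were above all vehicle arrays by more than the range within either group. The means of Lipa were 12.79 ± 0.06 (SD, n = 3) and 13.06 ± 0.03 (SD, n = 3), a 1.21-fold difference, and the experiments gave 0.32, 0.28 and 0.20 (log2).

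Npc1 (ENSMUST00000025279_at) encodes the membrane protein that exports cholesterol from the lysosome. Its value was 11.45, 11.33 and 11.65 with vehicle in experiments 1, 2 and 3, and 11.72, 11.75 and 11.73 with oxLDL in the same order. The oxLDL arrays lay within 0.032 of each other while the vehicle arrays spanned 0.33, and the lowest oxLDL array was only just above vehicle array 3. The means of Npc1 were 11.48 ± 0.16 (SD, n = 3) and 11.73 ± 0.02 (SD, n = 3), a 1.19-fold difference. The within-experiment differences of Npc1, 0.27, 0.42 and 0.078 (log2), had the same sign but were far apart.

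Npc2 (ENSMUST00000021668_at) encodes the soluble protein that hands cholesterol to Npc1. Its value was 12.03, 11.87 and 12.16 with vehicle in experiments 1, 2 and 3, and 11.88, 11.82 and 11.92 with oxLDL in the same order. The groups overlapped, since vehicle array 2 lay below oxLDL arrays 1 and 3. The means of Npc2 were 12.02 ± 0.15 (SD, n = 3) and 11.87 ± 0.05 (SD, n = 3), a log2 fold-change of -0.15. It was -0.22 without vehicle array 2, -0.076 without vehicle array 3 and -0.047 after quantile normalization. Within each experiment the oxLDL array was the lower one, by differences of -0.15, -0.049 and -0.24 (log2), and the median over all tested transcripts was itself -0.10. Npc2 was thus the 1 gene of the 8 whose difference lay below that median. Its distance from the median, -0.043, was smaller than the SD of its within-experiment differences, 0.096. Without oxLDL array 2 the difference of Npc2 was -0.12 and lay above the median of the tested transcripts, which was then -0.13. Npc1 exceeded Npc2 in its difference in 3 of 3 experiments, by 0.42, 0.47 and 0.32 (log2).

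**Figure D2:**
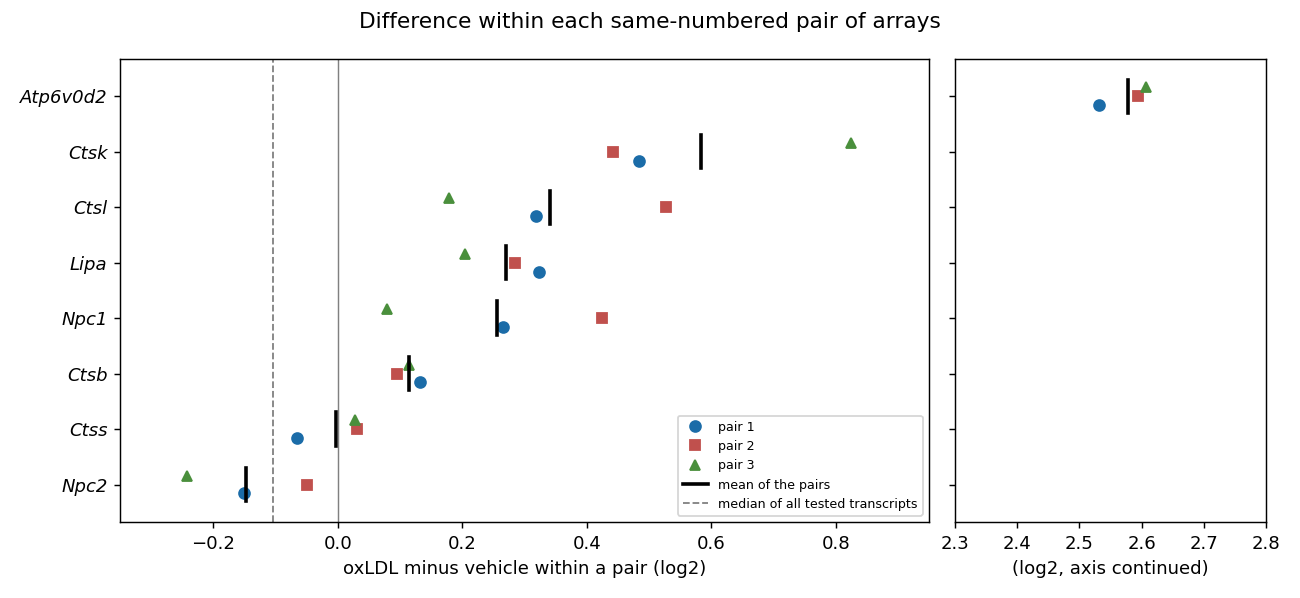
Difference between the oxLDL and vehicle arrays of the same number (log2, horizontal axis) for each gene, with 1 point per experiment and a bar at their mean. The axis is broken but keeps its scale, and Atp6v0d2 lies alone near 2.58; the dashed line is the median of all tested transcripts, -0.10, and Npc2 is the 1 gene with its mean to the left of it.

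Ordered by the mean difference, the genes ran Atp6v0d2, Ctsk, Ctsl, Lipa, Npc1, Ctsb, Ctss and Npc2. Neighbours in this order were compared within each experiment. The sign of their difference varied between experiments for Ctsk and Ctsl, Ctsl and Lipa, Lipa and Npc1, and Npc1 and Ctsb. These neighbours could not be ranked. The sign was the same in 3 of 3 experiments for Atp6v0d2 and Ctsk, for Ctsb and Ctss, and for Ctss and Npc2. Atp6v0d2 was above Ctsk by 2.05, 2.15 and 1.78 (log2). Ctsb was above Ctss by 0.20, 0.064 and 0.086, and Ctss above Npc2 by 0.084, 0.081 and 0.27. A common sign over 3 experiments is weak ground for an order where the gaps are small. The 2 genes most alike over the 3 experiments were Ctsl and Npc1, with a distance of 0.15 (log2). Both had their largest difference in experiment 2 and their smallest in experiment 3, whereas Ctsk had its largest in experiment 3. The median difference of all tested transcripts was -0.059, -0.018 and -0.24 in experiments 1, 2 and 3. It was likewise highest in experiment 2 and lowest in experiment 3, so this order of experiments is not particular to Ctsl and Npc1.

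The arrays also differed among themselves. Vehicle array 2 held the lowest vehicle value for 7 of the 8 genes, all but Ctsb, and the same array was lowest for 42.2% of tested transcripts. Vehicle array 3 was the highest for 5 of the 8 (Ctsk, Ctsl, Lipa, Npc1 and Npc2) and for 57.2% of tested transcripts, and its median over all transcripts was 8.80 against 8.74 and 8.76 on vehicle arrays 1 and 2. The medians of oxLDL arrays 1, 2 and 3 were 8.71, 8.75 and 8.64, so experiment 3 held both the highest and the lowest array median. The SD was smaller over the oxLDL arrays than over the vehicle arrays for 7 of the 8 genes, all but Ctsk, and for 44.3% of tested transcripts. The share of these array differences in the results was not tested.

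Against the fit over all transcripts, 1 of the 8 genes, Atp6v0d2, was called higher at a limma q-value below 0.05 and at least a 2-fold change, where 0.686% of the 40845 tested transcripts were called higher. None of the 8 was called lower, where 2.45% of tested transcripts were. At the q-value alone, 5 of the 8 were higher (Atp6v0d2, Ctsk, Ctsl, Lipa and Npc1), where 10.7% of tested transcripts were higher, and 0 were lower, where 30.8% of tested transcripts were lower. At an unadjusted limma p under 0.05 the counts were also 5 and 0, where 10.5% of tested transcripts were higher and 30.2% lower. These shares were slightly smaller than at the q-value, so the q-value was the less strict cut here and the equal counts are not separate results. Ctsk, one of the 5, passed the filter on low values through its oxLDL arrays, and 4 of the 5 had both group means above the filter. All 3 oxLDL arrays were above all 3 vehicle arrays for 6 of the 8 and below them for 0 of the 8, beside the 12.7% and 32.5% of tested transcripts given above. Since this contrast chose the genes, nothing is read from these counts beyond the values themselves.

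The count of 5 at the q-value alone rested in part on single arrays. Without vehicle array 1 it was 2 (Atp6v0d2 and Ctsk), where 6.76% of tested transcripts were higher, and without oxLDL array 1 it was 3 (Atp6v0d2, Ctsk and Ctsl), where 6.95% were. With Benjamini-Hochberg adjustment it was 4, with Npc1 lost, and the share of tested transcripts was 7.31%. It was 6, with Ctsb added, after quantile normalization, where 24.4% of tested transcripts were higher, and after median centring, where 18.5% were. All 8 transcripts were tested, and the largest share of tested transcripts with a greater log2 fold-change was 56.8%, for Npc2. The share was 2.51% for Ctsk, 6.68% for Ctsl, 9.39% for Lipa, 9.99% for Npc1, 20.2% for Ctsb and 35.2% for Ctss.

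**Figure D3:**
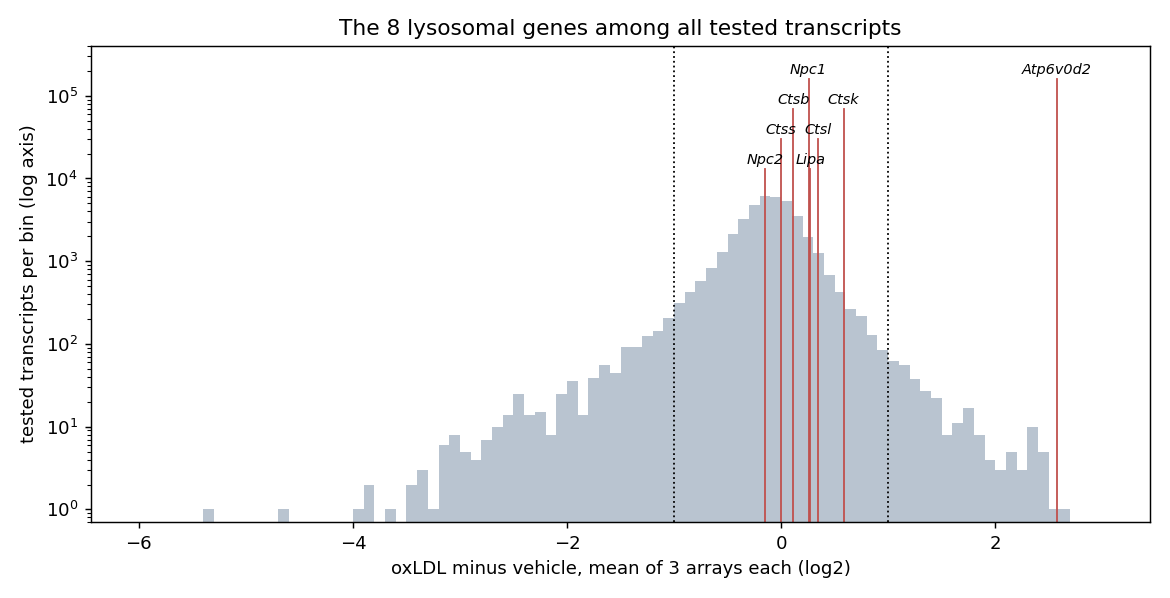
Distribution of the log2 fold-change (oxLDL minus vehicle, horizontal axis) over the 40845 tested transcripts, as a count per bin of width 0.1 on a log axis. Red lines mark the 8 genes and dotted lines a 2-fold change either way; Atp6v0d2 at 2.58 is the 1 gene outside the dotted lines.

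The scaling of the arrays moved the small differences. When the 6 arrays were quantile-normalized once more, the tested transcripts had a median of 0.02 in place of -0.10, and the lysosomal genes moved up with it. The log2 fold-change was then 2.71 for Atp6v0d2, 0.68 for Ctsk, 0.40 for Ctsl, 0.36 for Npc1 and 0.35 for Lipa. Ctsb was at 0.19. Ctss turned from -0.0023 to 0.076, so no direction can be given for it. Relative to the median of the tested transcripts as deposited, the differences were 2.68 for Atp6v0d2, 0.69 for Ctsk, 0.44 for Ctsl, 0.37 for Lipa, 0.36 for Npc1, 0.22 for Ctsb, 0.10 for Ctss and -0.043 for Npc2.

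**Figure D4:**
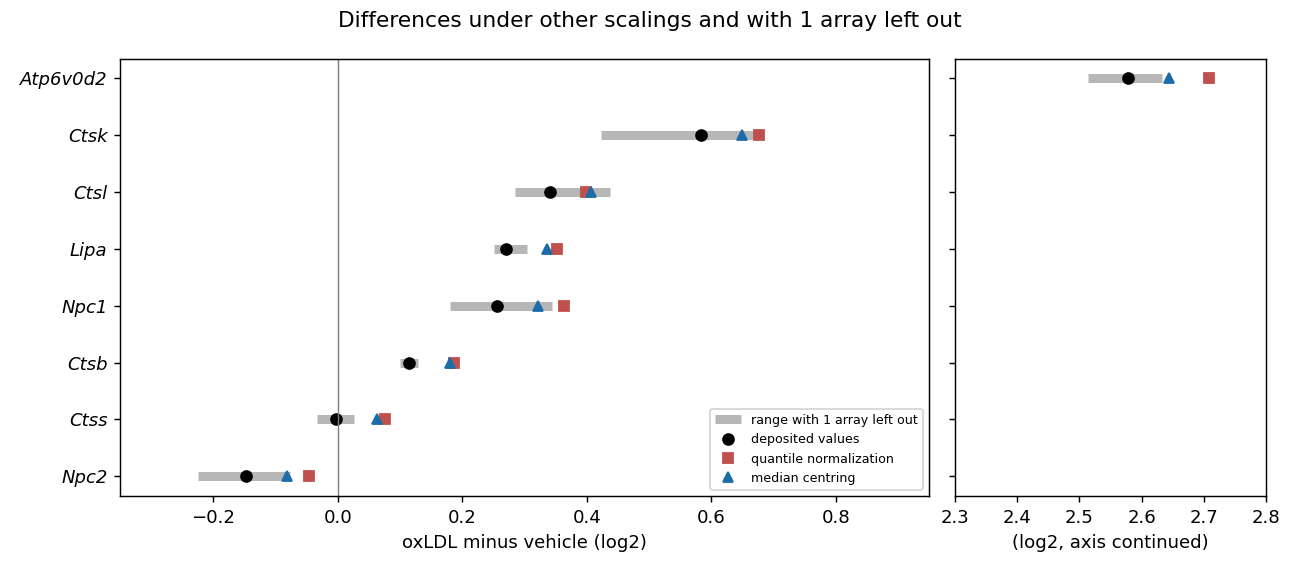
Log2 fold-change of each gene (horizontal axis) from the deposited values, after quantile normalization and after median centring of the arrays, with grey bars for the range when 1 array was left out. Ctss lies near 0 and crosses it, Npc2 stays below 0, and the other 6 genes stay above 0 under each setting shown.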

How the data were processed

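The 6 arrays were grouped and numbered from the sample titles. Per the study's methods, the authors applied quantile normalization to the probe measurements, with no background adjustment, and PLIER summaries over CustomCDF version 15 probe sets of Ensembl release 65 transcripts. The deposited table holds 1 log2 value per transcript and array. That the scale is log2 was judged from values of 5.95 to 14.42, and any offset is not given in the sources used here. The coordinates of the RefSeq windows are of another build than the one the study used.

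The 8 genes, the motifs and the tests were chosen with earlier results of these data known. The gene of each identifier was supplied with the list, and 0 of 49997 rows of the RefSeq gene table hold such identifiers, so other lysosomal genes and marker genes were not analysed here, and protein comparisons were not made. The text names the 8 genes and the 2 transcripts nearest to Atp6v0d2. Transcripts with a mean above 8.74, the median of all, were tested (40845), in place of the authors' detection calls. The limma fit (limma 3.58.1, R 4.3.3, two-sided, prior proportion 0.1, no covariate) was followed by Storey q-values, in an implementation written for the purpose. The fit was tested on simulated data. The 3 arrays per group limit the precision. Plots were made in Python 3.11.15 (matplotlib 3.10.9).

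Each experiment's cells were divided between the wells, and same-numbered arrays were taken to share a pool. Across tested transcripts, deviations from the group means correlated at 0.51, 0.67 and 0.58 for arrays of the same number and at -0.53 to -0.04 otherwise. Deviations within a group cancel out, so positive values for the same number make the others negative on average. The arrays were paired by number on this basis. Whether shared array processing gave the correlations was not tested. The alternatives were other scalings, an offset, a replicate block, other filters, variance models and thresholds, and each array left out. Reading them for the q-value alone was decided after seeing the data.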

Additional observations from a re-analysis of the deposited data

How the results depend on the processing

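With each array left out, the median over the 8 genes lay between 0.22 and 0.32 (log2), the genes called higher stayed at 1 and those called lower at 0, the genes higher at the q-value alone lay between 2 and 5 (6.76% to 11.1% of all tested transcripts were then higher), and all transcripts called lay between 275 and 313 higher and between 911 and 1277 lower. With no fold-change threshold, 5 of the 8 genes were called higher, and 4369 of all tested transcripts were higher and 12587 lower. Among the brightest 25% of transcripts, where 20423 transcripts and 7 of the 8 genes (all but Ctsk) were tested, 642 transcripts were called lower, a smaller count from a smaller set. The fit with the replicate block gave 1 gene called higher and 5 higher at the q-value alone, with the pairs as a fixed term (14% of tested transcripts higher) or a random one (14.3%), and the pairing changed no call of the 8 genes. With the fixed block every transcript received 1 common variance (largest q 7.78e-22 among 2-fold changes), so its q-values say nothing about stability.

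Only the scalings, the offset and the arrays left out, 9 alternatives in all, can move a gene's mean difference. Of the 72 single-gene values under them, 60 moved by less than the SD between experiments, 12 moved by more, and 0 of the genes that passed the q-value changed sign. Ctss, which did not pass it, ranged from -0.033 to 0.076. The alternative for lists of other lysosomal genes was not run. Signal over background was not assessed.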
